A study of Mus musculus with 22 samples.

Results

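The transcripts of β-catenin, of the 4 TCF/LEF factors that carry it to DNA and of 5 genes that respond to it were followed through the developing mouse trachea. The genes were Ctnnb1 (β-catenin itself), the factors Lef1, Tcf7, Tcf7l1 and Tcf7l2, and the targets Axin2, Nkd1, Nkd2, Sp5 and Apcdd1. They were chosen by gene symbol, and all 10 were present among the 26202 symbols of the count table. RNA was sequenced from whole tracheas at E11.5, with 5 controls (Wnt5a f/f) and 4 Wnt5a mutants (Dermo1Cre; Wnt5a f/f), and from cells sorted at E13.5. Dermo1Cre acts in the mesenchyme, so the epithelium of these mutants keeps its Wnt5a alleles. The sorted cells all carried the gamma SMA eGFP reporter. They were epithelium (stained for EpCAM), muscle (GFP positive) and chondroblasts, which are the cells negative for both, with 2 control libraries of each population and 3 libraries of Notum 150/150 mutant chondroblasts. Control embryos were labelled either Bmp4 f/f or Notum 300/300, and which of these a control library holds is not given by the column names. Each sample pooled 5 tracheas. One control library of each population came from an earlier date and one from a later date, and all Notum mutants came from the later date. They are named here by the numbers in their column names, 97, 98 and 98-2. The meaning of the number that 98 and 98-2 share is not stated.

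In canonical Wnt signaling, a Wnt ligand at its Frizzled and LRP receptors halts the complex of Axin, APC and GSK3 that otherwise marks β-catenin for destruction. β-catenin then enters the nucleus and joins TCF/LEF factors on DNA. Lef1 and Tcf7 act mostly as activators, Tcf7l1 mostly as a repressor, and Tcf7l2 as either. Many of the genes they switch on are brakes on the same pathway: Axin2 rebuilds the destruction complex, Nkd1 and Nkd2 act on Dishevelled, and Apcdd1 blocks the pathway at the cell surface. Sp5 is a zinc finger transcription factor induced by Wnt. Notum is a secreted enzyme that strips Wnt ligands of the lipid they need to signal, and Wnt5a is best known for signaling without β-catenin. β-catenin protein is regulated mainly by its stability, which RNA does not measure.

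The TCF/LEF factors bind DNA at sites related to CTTTGAT. The start sites of the 3 genes that stood out in the Notum mutants are shown because they differ in this motif. Each window runs from 250 bases before to 50 bases after a start site of RefSeq (GRCm38.p6), 5′ to 3′ on the gene's strand, with any match to CTTTGA on either strand in capitals. The windows are chr2:70474673-70474972 for Sp5, chr3:131110047-131110346 for the first of the 4 listed starts of Lef1, and chr11:108920099-108920398 for Axin2, all on the plus strand.
Sp5: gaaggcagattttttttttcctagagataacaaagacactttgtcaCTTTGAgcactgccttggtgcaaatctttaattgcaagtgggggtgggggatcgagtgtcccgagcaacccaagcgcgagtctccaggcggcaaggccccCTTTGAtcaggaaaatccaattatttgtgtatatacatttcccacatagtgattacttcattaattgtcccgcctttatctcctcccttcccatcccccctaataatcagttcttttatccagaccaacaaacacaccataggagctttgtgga
Lef1: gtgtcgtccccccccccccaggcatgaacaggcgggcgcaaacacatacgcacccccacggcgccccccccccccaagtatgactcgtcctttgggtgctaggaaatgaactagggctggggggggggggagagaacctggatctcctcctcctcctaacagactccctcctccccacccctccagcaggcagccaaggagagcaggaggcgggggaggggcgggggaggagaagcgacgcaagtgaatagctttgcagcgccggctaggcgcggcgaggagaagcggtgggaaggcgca
Axin2: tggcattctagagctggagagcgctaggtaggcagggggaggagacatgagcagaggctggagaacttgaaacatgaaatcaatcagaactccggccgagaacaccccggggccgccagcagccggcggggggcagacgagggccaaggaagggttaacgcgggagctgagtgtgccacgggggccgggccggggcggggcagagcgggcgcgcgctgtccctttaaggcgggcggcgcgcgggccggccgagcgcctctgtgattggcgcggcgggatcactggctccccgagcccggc

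The Sp5 window held CTTTGA at 2 places, with first bases at -204 and -104 where the start site is 0, and the match at -104 was extended to the full CTTTGAT. The windows of Lef1 and Axin2 shown here held neither. Windows were searched for 9 of the 10 genes, all but Apcdd1. Of these 15 windows, 2 held CTTTGA, that of Sp5 and the fourth of Lef1 (chr3:131156044-131156343), which had 2 matches on the other strand. Over all 32851 windows, 16% held CTTTGA and 3.73% held CTTTGAT. In GENCODE M21 annotation of GRCm38, the genes span chr2:70474923-70477729 (Sp5), chr3:131110471-131224356 (Lef1), chr11:108920349-108950783 (Axin2) and chr8:88521354-88594884 (Nkd1) on the plus strand, and chr13:73818534-73847631 (Nkd2) on the minus strand.

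Total counts ran from 6880665 to 21678194 per library, and 3 counts corresponded to 0.138 to 0.436 CPM (counts of a gene scaled to a common library total). Levels below are CPM scaled by TMM factors over the 18 libraries. By epithelial and smooth muscle markers, the sorts matched their labels. Summed epithelial markers reached 2954 and 3425 CPM in epithelium and at most 45.4 CPM in the other sorted libraries, and summed smooth muscle markers reached 11062 and 14129 CPM in muscle and at most 116 CPM in the other sorted libraries. The 7 chondroblast markers summed to 2357 and 2478 CPM in control chondroblasts and 2998 to 3953 CPM in Notum mutants. They separated the sorts by less, with 800 and 1760 CPM in muscle and 286 and 382 CPM in epithelium. Within the sum, Sox9 was at 220 CPM in the earlier and 690 CPM in the later control chondroblasts. It was at 206 and 457 CPM in muscle and 527 to 694 CPM in Notum mutants. Col2a1 went the other way in the earlier and later controls, at 1213 and 912 CPM, as did Col9a1, at 679 and 446 CPM. The targeted transcripts did not separate the genotypes. Notum was at 13.8 and 86.1 CPM in control chondroblasts and at 34.0, 35.6 and 13.9 CPM in the mutants, and Wnt5a was at 57.7 to 162 CPM in E11.5 controls and 46.5 to 127 CPM in their mutants. These counts cover whole genes, so they do not show whether the altered part of either gene was transcribed.

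**Figure D1:**
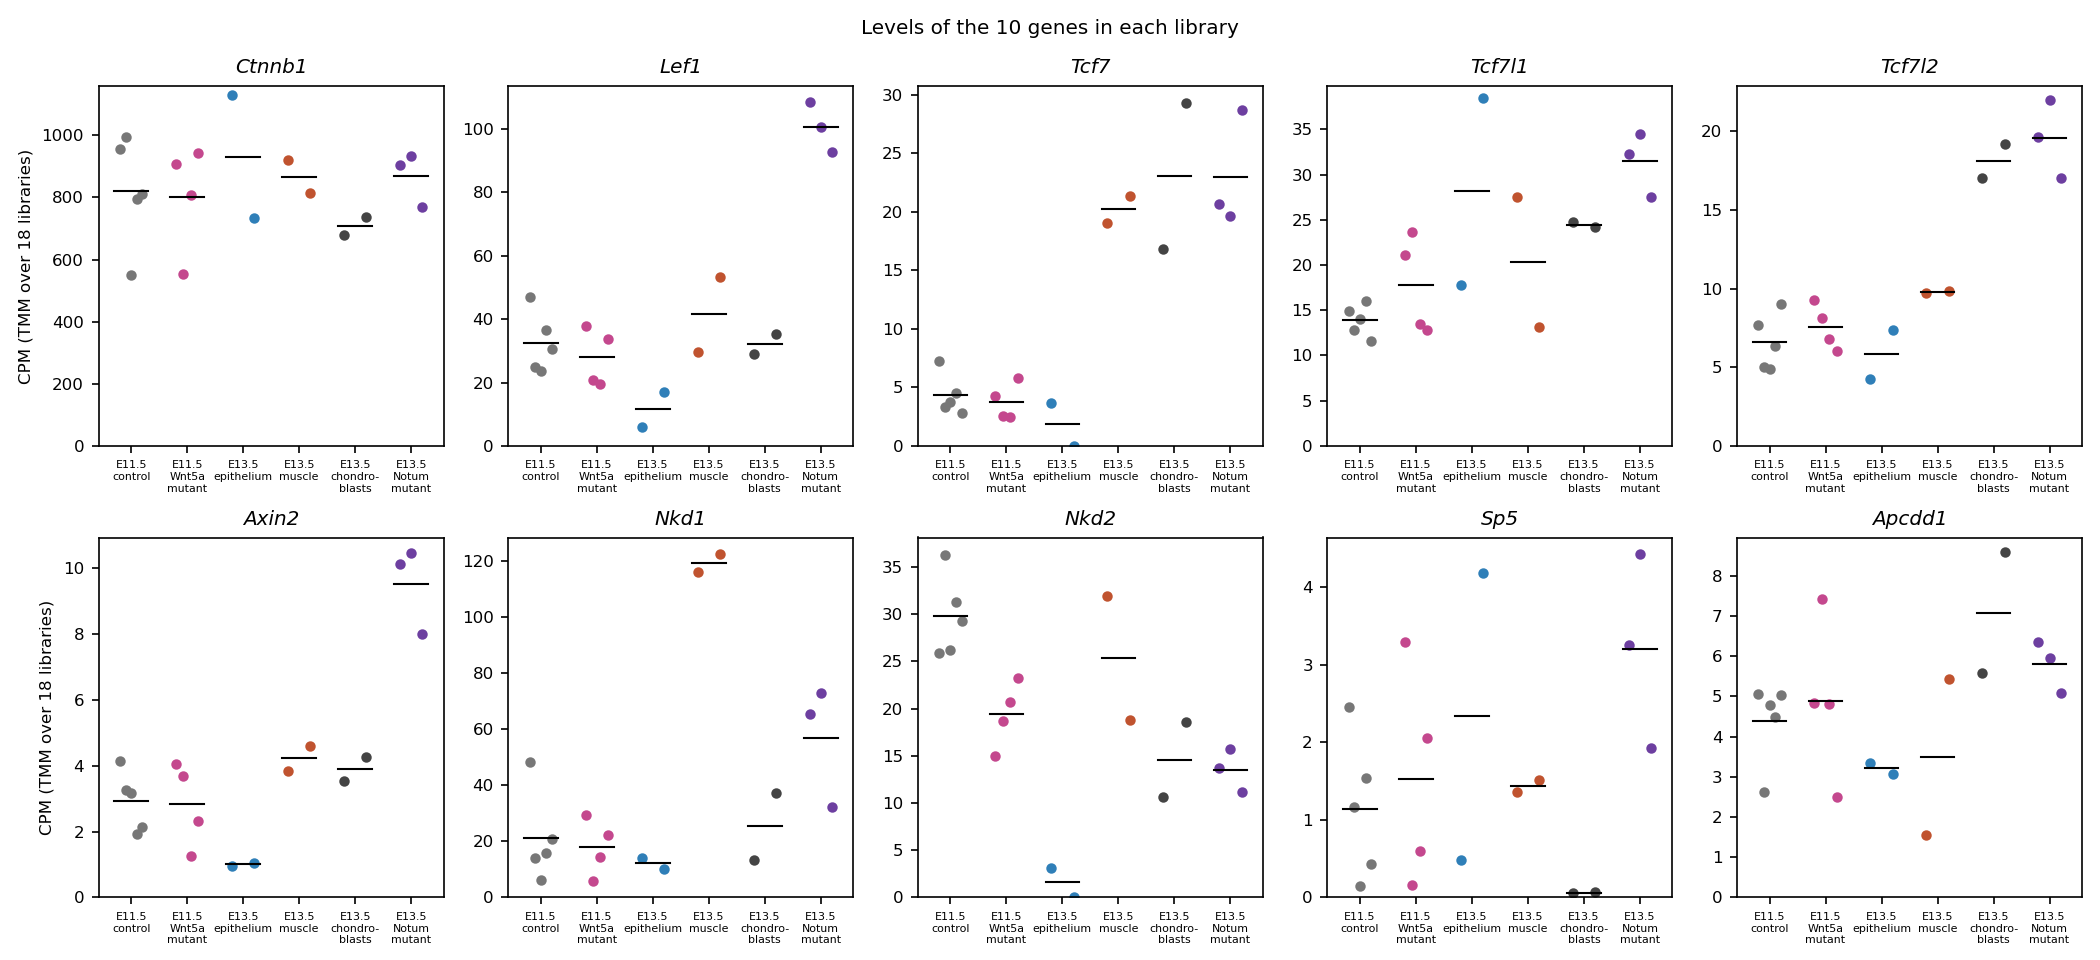
Level of each gene in every library, as CPM (y axis, linear from 0 in each panel), by group (x axis); points are libraries and bars are group means. Lef1 and Axin2 were highest in the 3 Notum mutant libraries, Nkd1 in the 2 muscle libraries, and Sp5 was near 0 in both control chondroblast libraries.

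Loss of Notum was examined in chondroblasts through the transcripts of the 10 genes. The activity of Wnt ligands was not measured. The study's thresholds are an unadjusted p under 0.05 and a fold change over 1.5, applied here to edgeR's quasi-likelihood test. The study took its p from DESeq2 and also required a minimum expression level. Lef1, Axin2 and Sp5 were higher in Notum mutant chondroblasts at these thresholds, while the other 7 genes did not pass them. These 3 of 10 genes compare with 5.51% of the 14120 genes tested that were higher at the same thresholds. None of the 10 passed in the lower direction, against 2.9% of all genes. After Benjamini-Hochberg adjustment over all genes, 0 genes passed 0.05 in edgeR's quasi-likelihood test (0% of those tested), where 1762 had an unadjusted p under 0.05. DESeq2's Wald test called 526 genes, Lef1 and Sp5 among them, and limma voom called 5, with none of the 10. At the study's thresholds, Nkd1 passed beside the 3 genes with DESeq2, with voom and in edgeR with no filter on low counts. In sorted bulk cells, a higher level in every cell and more cells with the transcript cannot be told apart.

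Lef1 stood at 108, 101 and 92.6 CPM in Notum mutants 97, 98 and 98-2, and at 29.0 and 35.2 CPM in the earlier and later controls. Every mutant library was above both controls, and the highest control was well below the lowest mutant. The log2 fold change was 1.66 (SE 0.17), a 3.15-fold difference, with an adjusted p of 0.0796 in edgeR's quasi-likelihood test. Leaving out a mutant brought the adjusted p to between 0.354 and 0.668. Leaving out either control gave 0.00707 or 0.0103, but the lone control left is then assumed to vary like the mutants, so these lower values are no further support. The log2 fold change stayed between 1.51 and 1.80 throughout.

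Axin2, the feedback scaffold of the destruction complex, was at 10.1, 10.5 and 7.99 CPM in the mutants and 3.53 and 4.26 CPM in the controls. These groups did not overlap either. Its log2 fold change was 1.30 (SE 0.40, adjusted p = 0.317), and it no longer passed the study's thresholds without mutant 97 or without mutant 98.

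Sp5 showed the widest gap of the 10 genes. The mutants held 70, 90 and 39 counts, or 3.25, 4.42 and 1.92 CPM, and each control held 1 count, or 0.0511 and 0.0747 CPM. Both controls were thus under the floor of 3 counts. Summed over libraries, 199 counts of 61511295 in mutants against 2 of 35191406 in controls gave a ratio of 56.9, with an exact 95% interval of 15.6 to 473 that covers counting error only. The fitted test gave an adjusted p of 0.205. The mutant level overlapped that of the other sorted cells, which held 0.479 and 4.18 CPM in epithelium and 1.36 and 1.51 CPM in muscle.

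The other brakes on the pathway did not pass in edgeR's main fit, though Nkd1 passed the study's thresholds with DESeq2, voom or no filter. Nkd1 was at 65.4, 72.7 and 32.0 CPM in mutants and 13.4 and 37.1 CPM in controls, so mutant 98-2 fell between the controls (log2 fold change 1.17, SE 0.53, adjusted p = 0.429). The Nkd1 difference was 2.08 against the earlier control alone and 0.60 against the later control alone. Nkd2, at 11.2 to 15.7 CPM in mutants, lay within its controls at 10.6 and 18.5 CPM. Apcdd1 was at 5.08 to 6.36 CPM in mutants and 5.57 and 8.59 CPM in controls (log2 fold change -0.28, SE 0.43).

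Of the factors, Lef1 was the only one past the study's thresholds. Tcf7 had nearly equal means, 23.0 ± 4.96 CPM (SD, n = 3) in mutants and 23.1 ± 8.83 CPM (SD, n = 2) in controls. Tcf7l2 was at 17.02 to 21.99 CPM in mutants and 17.01 and 19.2 CPM in controls. Tcf7l1 was at 32.3, 34.5 and 27.5 CPM in mutants and 24.7 and 24.2 CPM in controls, without overlap (log2 fold change 0.37, SE 0.19, adjusted p = 0.476). Ctnnb1 was at 903, 932 and 768 CPM in mutants and 678 and 736 CPM in controls, a log2 fold change of 0.31 (SE 0.12, adjusted p = 0.374), which is 1.24-fold, with an unadjusted p under 0.05 and a fold under the study's threshold of 1.5. In all, 5 of the 10 genes were higher in mutants without overlap and 0 were lower, where 17.2% of all genes tested were higher and 16.4% lower without overlap. The median log2 fold change of the 10 genes was 0.34, beside 0.02 over all genes tested.

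**Figure D2:**
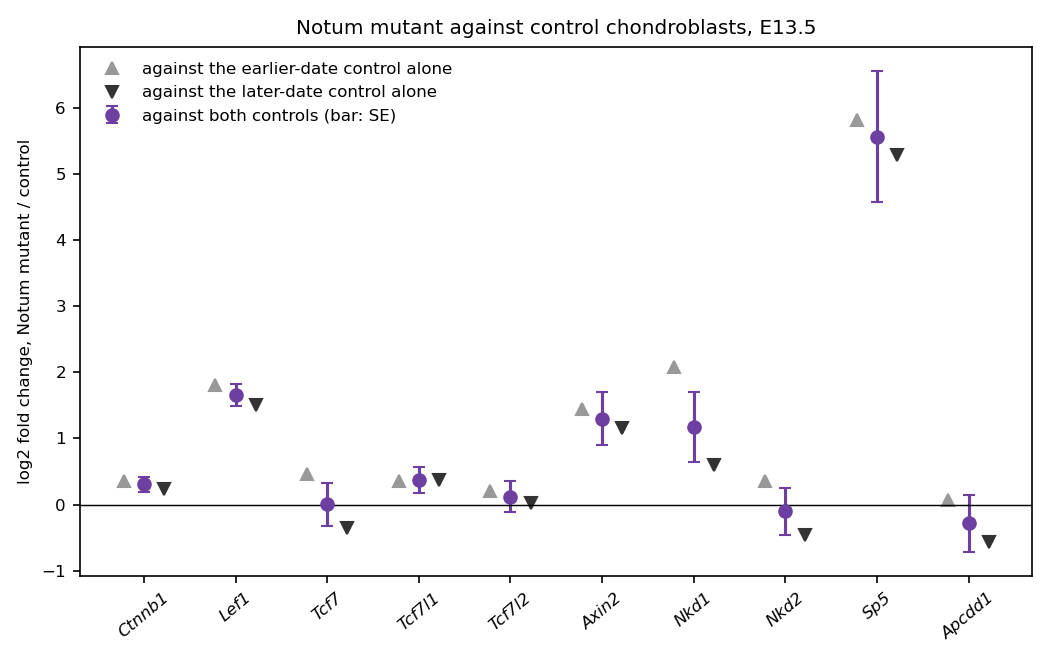
Log2 fold change of each gene in Notum mutant over control chondroblasts (y axis), against both controls with its SE (circles) and against the earlier (upward triangles) or the later control alone (downward triangles). Lef1, Axin2 and Sp5 kept similar values against either control, while Nkd1 was at 2.08 against the earlier and 0.60 against the later control.

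Date and other cells moved with parts of this comparison. Lef1 was higher at the later date in each control population, at 17.1 against 6.08 CPM in epithelium, 53.4 against 29.6 in muscle and 35.2 against 29.0 in chondroblasts. So was Axin2, at 1.05 against 0.958 CPM in epithelium, 4.61 against 3.85 in muscle and 4.26 against 3.53 in chondroblasts. Sp5 was at 4.18 against 0.479 CPM in epithelium and 1.51 against 1.36 in muscle, with 1 count in each control chondroblast library. With the 9 sorted libraries in 1 edgeR fit and a term for the date, the log2 fold change of Lef1 was 1.20 (SE 0.31, adjusted p = 0.321). That of Sp5 was 4.86 (adjusted p = 0.337) and that of Axin2 was 1.18 (adjusted p = 0.612), and Axin2 was lost from the study's thresholds. Axin2 was also lost in the fit of the 9 libraries without the date term, where Lef1, Nkd1 and Sp5 passed. Summed over 5 genes, red cell markers stood at 65101 CPM in the earlier of the controls, at 6053 CPM in the later one, and at 6219 to 8421 CPM in mutants. At the study's thresholds 3 of these 5 were lower in mutants, as was 1 of 5 endothelial markers, where 2.9% of all genes were lower. Against the later control alone, with no replicate of that control, the log2 fold change was 1.51 for Lef1 and 1.15 for Axin2. The 5 leukocyte markers summed to 79.7 and 123 CPM in controls and 151 to 260 CPM in mutants, led by the macrophage receptor Csf1r. Of the 3 tested, 1 was higher at the study's thresholds, where 5.51% of all genes were higher. The 5 neural and glial markers summed to 143 and 211 CPM in controls and 214 to 281 CPM in mutants. The 7 smooth muscle markers summed to 73.2 CPM in both controls and 81.1 to 116 CPM in mutants. Neither sum overlapped, and 1 gene of each list was higher, beside the same 5.51%. The part of these cells in the differences was not tested. Lef1 and Tcf7 are also T cell genes. The T cell gene Cd3g was at 14.8 CPM in mutant 98-2 and at most 0.358 CPM in the other chondroblast libraries, and that mutant had the lowest Lef1 and the highest Tcf7 of the 3. Without mutant 98-2, the log2 fold change of Lef1 was 1.71, and 4 of the 10 genes passed the study's thresholds, Nkd1 being added. In that fit 4.66% of all genes were higher at these thresholds.

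The rest of the pathway was read by role, from the membrane to the nucleus. Of the 5 receptors and Dishevelled genes, 2 were higher at the study's thresholds and 0 lower, where 5.51% of all genes were higher and 2.9% lower. These were Lrp6, a Wnt co-receptor, at 57.9 ± 9.37 CPM in mutants (SD, n = 3) and 33.6 ± 9.73 CPM in controls (SD, n = 2), and Dvl1, a Dishevelled, at 20.7 ± 3.17 and 13.03 ± 0.803 CPM. Of 13 genes of the destruction complex and tankyrases, 2 were higher and 0 lower. Gsk3b, a kinase that marks β-catenin for destruction, was at 77.4 ± 2.60 CPM in mutants and 40.9 ± 0.700 CPM in controls, a log2 difference of 0.93 (SE 0.14, adjusted p = 0.154). Apc2, an APC relative, had a log2 difference of 1.02 (SE 0.42, adjusted p = 0.392).

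Nuclear cofactors and inhibitors of β-catenin gave 7 of 16 higher and 0 lower at the study's thresholds, where 5.51% of all genes were higher and 2.9% lower. Among them were Bcl9 and Bcl9l, adaptors that link β-catenin to its coactivators, with log2 differences of 0.70 and 1.09, and the acetyltransferase Crebbp, with 0.85 (SE 0.15). The co-repressors Tle3 and Tle2, which silence TCF targets, differed by 1.83 and 0.61, and Chd8, a chromatin remodeler that binds β-catenin, by 0.73. Activating and repressing partners thus appeared side by side in this count. Of 6 catenins and cadherins tested, 1 was higher. It was Cdh2, N-cadherin of condensing mesenchyme, at 153 ± 7.69 CPM in mutants and 96.9 ± 5.93 CPM in controls.

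Other targets of β-catenin gave 7 of 16 higher and 1 lower, beside the same 5.51% and 2.9% of all genes. Msx2, a homeobox factor, was at 97.5 ± 5.90 CPM in mutants and 23.8 ± 2.78 CPM in controls, a log2 difference of 2.05 (SE 0.15, adjusted p = 0.054), and its relative Msx1 differed by 2.15 (SE 0.31). Ccnd1, which drives entry into the cell cycle, differed by 1.04, and Wif1, a secreted Wnt inhibitor, by 0.77. The ligand Bmp4 was at 95.3 ± 5.19 CPM in mutants and 48.8 ± 11.4 CPM in controls, some of which carry a floxed Bmp4 by their labels. Myc went the other way, at 68.8 ± 5.71 CPM in mutants and 108 ± 2.23 CPM in controls (log2 difference -0.65, SE 0.13). The medians of the 5 lists lay between 0.38 and 0.67 on the log2 scale, beside 0.02 over all genes tested, and no gene of them passed 0.05 after adjustment.

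**Figure D3:**
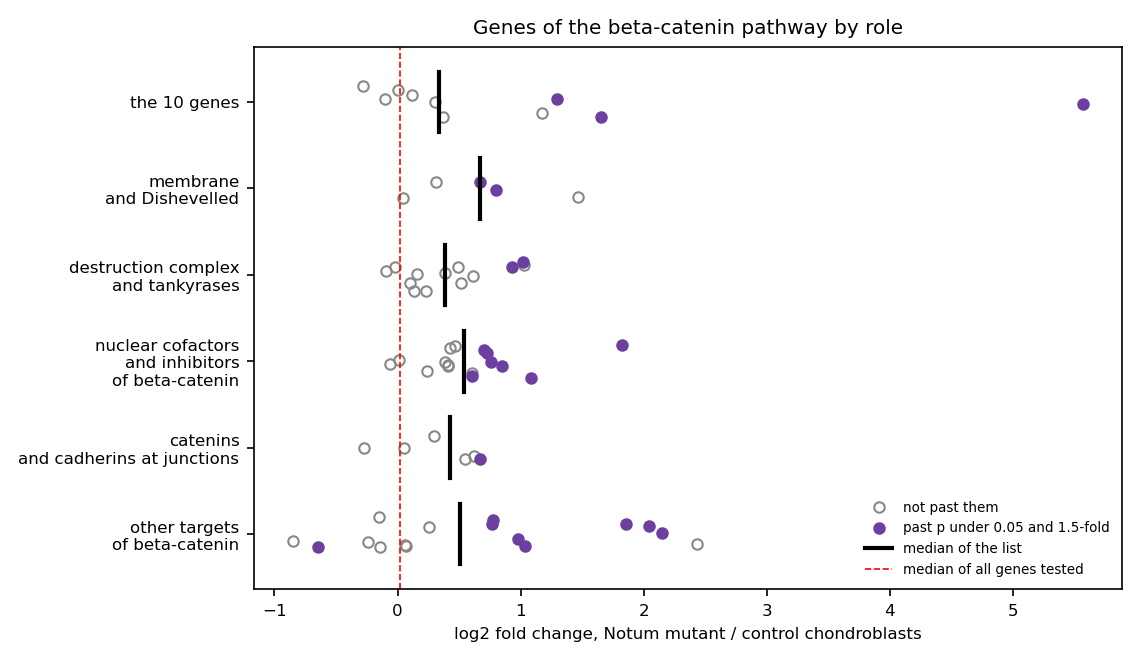
Log2 fold change in Notum mutant over control chondroblasts (x axis) of the 10 genes and of each list of pathway genes (rows); filled points passed an unadjusted p under 0.05 and a fold change over 1.5, black bars are list medians and the dashed line is the median of all genes tested, 0.02. The medians of all 6 rows lay to its right, and Myc was the only filled point to its left.

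The sorted control populations were compared to place each gene in epithelium, muscle or chondroblasts. Nkd1 was the gene that separated them most clearly. It was at 116 and 122 CPM in muscle, 13.4 and 37.1 CPM in chondroblasts and 14.1 and 10.2 CPM in epithelium, so muscle stood above both other populations, which overlapped. Epithelium was lower than muscle by a log2 fold change of -3.29 (SE 0.56, adjusted p = 0.0331), the one call among the 10 genes in this comparison, where 3.58% of 13687 genes passed. Chondroblasts were lower than muscle by -2.25 (SE 0.54, adjusted p = 0.472). The adjusted p between epithelium and muscle rose to 0.0561 with a term for the date and to between 0.124 and 0.153 without the later epithelium or either muscle library. In the earlier and later muscle libraries, markers of skeletal muscle, which were at most 49.1 CPM in the other sorted cells, summed to between 639 and 2467 CPM, and their part in the Nkd1 level was not tested.

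Nkd2, the relative of Nkd1, was at 31.9 and 18.8 CPM in muscle, 10.6 and 18.5 CPM in chondroblasts, and 3.16 and 0.0654 CPM in epithelium. The epithelium fell below both mesenchymal populations, and its difference from muscle passed the study's thresholds (log2 fold change -3.94, SE 1.54, adjusted p = 0.248). Lef1 followed the same order against muscle, at 6.08 and 17.1 CPM in epithelium and 29.6 and 53.4 CPM in muscle (log2 fold change -1.84, SE 0.66, adjusted p = 0.215). In control chondroblasts, at 29.0 and 35.2 CPM, Lef1 overlapped muscle. At the study's thresholds the Nkd2 difference was lost without either muscle or either chondroblast library, and that of Lef1 without the earlier epithelium, the later muscle or either chondroblast library. Axin2 was at 0.958 and 1.05 CPM in epithelium, 3.85 and 4.61 CPM in muscle and 3.53 and 4.26 CPM in chondroblasts, without passing between any pair (adjusted p = 0.444 for epithelium against muscle).

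Sp5 had a different order. Control chondroblasts, with 1 count each, were below epithelium (log2 fold change -5.08, SE 1.90, adjusted p = 0.256), past the study's thresholds, and at -4.40 against muscle (SE 1.85, adjusted p = 0.86), not past them, and epithelium itself varied from 10 to 64 counts between the dates. Without the later epithelium, either muscle library or either control chondroblast library, the Sp5 difference from epithelium did not pass the study's thresholds. Nor did it pass them with voom, with no filter on low counts or with a term for the date. Tcf7 was at 16.8 to 29.3 CPM in the 4 mesenchymal controls and at 3.69 and 0 CPM in epithelium. Tcf7l2 was at 17.01 and 19.2 CPM in chondroblasts, above muscle at 9.72 and 9.85 CPM and epithelium at 4.26 and 7.39 CPM, with an adjusted p of 1 against muscle and 0.399 against epithelium. Ctnnb1 varied least, from 678 to 1130 CPM, and Apcdd1 was between 1.54 and 8.59 CPM in all 6 libraries.

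Between chondroblasts and muscle, 0 of the 10 genes passed the adjusted threshold and 1 passed the study's in the lower direction, against 0.132% of all genes called after adjustment, 2.44% higher and 3.03% lower at the study's thresholds. In edgeR 792 genes had an unadjusted p under 0.05 there, and DESeq2 called 1 of the 10, beside 255 of all 13687 genes tested. Between chondroblasts and epithelium, 0 passed after adjustment (2.74% of all genes, with 2240 at an unadjusted p under 0.05, and 0 of the 10 by DESeq2). In the main fit 1 gene, Sp5, was lower at the study's thresholds, where 9.09% of all genes were higher and 6.66% lower. Other scalings kept Sp5 alone, but the tool and filter changed the genes past these thresholds. DESeq2 gave 4 higher (Lef1, Tcf7, Tcf7l2 and Nkd2) and Sp5 lower. Voom gave 3 higher (Lef1, Tcf7 and Nkd2) and edgeR with no filter 4 (Lef1, Tcf7, Nkd1 and Nkd2), neither with Sp5. The fit of the 9 sorted libraries gave 5 higher (Lef1, Tcf7, Tcf7l2, Axin2 and Nkd2) and Sp5 lower. Between epithelium and muscle, 3 were lower and 0 higher, where 10.1% of all genes were lower and 7.53% higher. Each population had 2 libraries, which limits what the test can call.

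Among the wider lists, some junction genes and targets separated epithelium from chondroblasts after adjustment, where 2.74% of all genes passed. Cdh1, E-cadherin, is also among the epithelial markers summed above. It was at 562 CPM on average in epithelium and 0.338 CPM in chondroblasts, and Cdh11, a mesenchymal cadherin, at 51.6 and 482 CPM, together 2 of 7 junction genes. Of 16 other targets tested, 2 were higher in chondroblasts (Wif1, log2 difference 3.32, and Myc, 3.23) and 2 were higher in epithelium (Tnfrsf19, a receptor, and Id2, a helix-loop-helix inhibitor, at -1.51 and -1.07). None of the genes of the membrane, destruction complex or nuclear cofactor lists passed after adjustment in any pair of populations.

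Which TCF/LEF factor made up most of the transcripts was read per length, as CPM per kilobase of the longest coding transcript in GENCODE M21. In epithelium, Tcf7l1 held 57.2% and 64.7% of the summed TCF/LEF level and Lef1 17.1% and 25.2%. In muscle, Tcf7 was steady at 27.6% and 28.0%, while Lef1 held 30.5% and 49.5% and Tcf7l1 32.4% and 13.9%. Control chondroblasts were close to evenly divided among Lef1 (29.9% and 28.8%), Tcf7 (24.4% and 33.8%) and Tcf7l1 (29.2% and 22.7%), with Tcf7l2 at 16.5% and 14.7%. In Notum mutant chondroblasts, Lef1 held 51.3% to 56.2%, above both controls, and the shares of each of the other 3 factors were below both. The summed level was 51.8 to 55.4 CPM per kilobase in mutants and 27.8 and 35.1 in controls. Shares sum to a whole, so a rise of 1 factor lowers the others, and the CPM of Tcf7, Tcf7l1 and Tcf7l2 given above show their own levels.

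**Figure D4:**
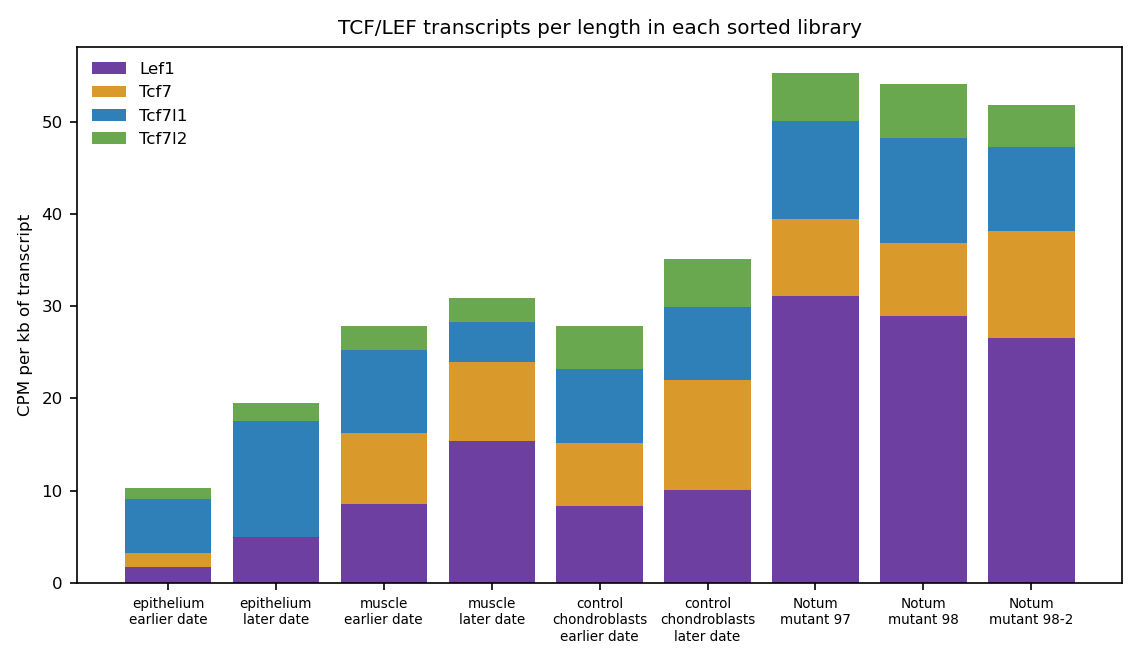
Summed TCF/LEF transcripts in each sorted library as CPM per kilobase of transcript (y axis, from 0), split by factor. The 3 Notum mutant libraries reached 51.8 to 55.4 in total, with Lef1 the largest block, and epithelium was mostly Tcf7l1.

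Deletion of Wnt5a was examined in whole tracheas at E11.5, before mesenchymal condensation. Nkd2 was the one gene of the 10 past the study's thresholds. It was at 25.8, 36.3, 26.2, 31.3 and 29.3 CPM in the 5 controls and at 15.0, 18.7, 20.7 and 23.2 CPM in the 4 mutants. All mutants were below all controls, which 0.436% of 14663 genes were, and 0 of the 10 genes were above all controls, where 0.825% were. The log2 fold change was -0.65 (SE 0.18), and the adjusted p was 0.927. At the study's thresholds 1 of the 10 was lower and 0 were higher, where 2.53% of all genes were lower and 1.19% higher. Leaving out 1 library gave log2 fold changes between -0.74 and -0.52, and the fold was under 1.5 without control 13 or without mutant 7. The column names of 4 controls and 4 mutants share a number, and Nkd2 was lower in the mutant of 4 of 4 such pairs, by log2 differences of -0.33 to -0.92, as were 5.78% of all genes.

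After adjustment 0 of the 10 genes passed in edgeR or in DESeq2, and 0.0136% of all genes did, which is 2 genes, both on the list of skeletal muscle markers. That list of 5 summed to 47.1 to 174 CPM in controls and 209 to 346 CPM in mutants, without overlap, and its part in the Nkd2 difference was not tested. Over all genes, 672 had an unadjusted p under 0.05, and DESeq2 called 40.

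The other 9 genes overlapped between Wnt5a mutants and controls. Axin2 was at 4.13, 3.26, 3.18, 1.94 and 2.14 CPM in controls and 4.04, 3.69, 1.26 and 2.34 CPM in mutants (log2 fold change -0.08, SE 0.40). Lef1 ran from 23.6 to 47.0 CPM in controls and from 19.5 to 37.8 CPM in mutants (log2 fold change -0.25, SE 0.26). Nkd1 and Sp5 varied more between libraries of 1 group than between groups, with Nkd1 at 6.22 to 48.3 CPM and Sp5 at 0.145 to 2.45 CPM among controls. Tcf7l1 had the largest positive difference with an SE below it, 0.32 (SE 0.23), with mutants at 21.1, 23.7, 13.48 and 12.8 CPM and controls at 13.9 ± 1.72 CPM (SD, n = 5). Ctnnb1 differed by -0.06 (SE 0.19). The median over the 10 genes was -0.07, beside -0.02 over all genes tested.

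Of the pathway lists at E11.5, none of the 5 membrane, 13 destruction complex or 16 nuclear genes passed the study's thresholds. Of 7 junction genes, 1 was higher in Wnt5a mutants, Cdh1, at 54.8 ± 16.9 CPM (SD, n = 4) and 32.3 ± 11.7 CPM (SD, n = 5). Its groups overlapped, with 32.9 CPM in mutant 18 and 47.8 CPM in control 7. Of 17 other targets, 2 were higher, the secreted Wnt inhibitor Dkk1 (log2 difference 0.88, SE 0.35) and Dact1, which acts on Dishevelled (0.71, SE 0.29). Over all genes tested, 1.19% were higher at these thresholds, and none of these 3 genes passed after adjustment. The Wnt5a and Notum comparisons differ in age, tissue and controls, and their difference was not tested.

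Genes with the profile most like 2 of these were looked up over the 18 libraries among 12540 genes that reached 10 CPM in a library. Among the closest to Lef1 were Lpgat1 and Slc9a5, with Pearson's r of 0.91 and 0.89 on log2(CPM + 1). Closest to Axin2 were Bcl9l, Dchs1 and Cic, with r of 0.93, 0.92 and 0.92. These 5 genes were highest in the Notum mutant libraries: Bcl9l, for example, was at 23.0 to 29.0 CPM there and at most 16.9 CPM elsewhere, and Slc9a5 at 21.7 to 28.4 CPM against at most 20.8 CPM. The libraries fall into separate groups, so these values describe a shared order of groups. Between the 2 genes themselves, r was 0.88.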

How the data were processed

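RNA was copied with a SMART-Seq kit for low inputs of polyadenylated RNA, which adds no molecular identifiers. The submitters' processing notes name Partek, limma and the build mm10, and the paper's methods name DESeq2. The deposited values are expected counts, which can be fractional, in 1 table of 47248 entries and 22 columns that the authors did not normalize. The aligner and counter are not given in the sources used here. Columns were matched to groups by name. Of them 18 were used, and 4 that matched no label were not. The labels list 3 control samples of each sorted population and 4 Notum mutants, of which 2 and 3 have a column used here.

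Entries of a symbol were summed (25 for Tcf7l2, 7 for Lef1, at most 2 for the others) and rounded. A gene entered a fit if over 50% of some group's libraries had 1 CPM or more. The quasi-likelihood test of edgeR 4.0.16 (R 4.3.3) was run, 2-sided, after TMM scaling and with Benjamini-Hochberg adjustment over all genes. Each SE was computed from the log2 fold change and F. The 3 control populations shared a fit, and each mutant was fitted with its own controls. Scripts were tested on simulated data. No 2 libraries of a group agreed within sampling noise (chi-square per gene at least 18.8). For sorted E13.5 cells, the paper's methods describe pools of 5 tracheas per litter and independent samples. No column name states a litter, so p-values measure the spread between these samples. Alternatives used DESeq2 1.42.0, limma 3.58.1, other scalings and filters, other sets of libraries, and a block or date term. The genes and lists were chosen with earlier results of these data known. The genes named are the 10, up to 6 per list and comparison by smallest p among those past a threshold, and the 3 closest in profile to Lef1 and to Axin2. Cd3g, Csf1r, Sox9, Col2a1, Col9a1 and the targeted genes were named after their values were seen. A gene that this rule names is not reported here.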

Additional observations from a re-analysis of the deposited data

Results flagged for a closer look

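Among the 5 E11.5 controls, Apcdd1 was at 2.62 CPM in control 13 and between 4.48 and 5.05 CPM in the other 4, a gap that set this library apart by Dixon's test. The 10 genes in the 2 groups at E11.5 gave 20 such tests, and chance alone flags about 1 in 20. No other gene was set apart.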

How the results depend on the processing

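The number of the 10 genes called after adjustment moved with the tool, the filter and the libraries. For Notum mutants it was 0, and 1 with no filter (Lef1), where 42 of 21179 genes were called. It was 2 with DESeq2 (Lef1 and Sp5), where 526 of 14119 were called, and 0 when 1 mutant library was left out. At the study's thresholds it was 3, beside 5.51% of all genes higher and 2.9% lower. Lef1 and Sp5 passed the study's thresholds in every alternative run. At those thresholds 2 to 4 of the 10 passed, with 2 without mutant 97, without mutant 98 or with the date term. In the fits that gave 2, between 3.22% and 6.77% of all genes were higher. For Wnt5a mutants the number was 0, and 1 at the study's thresholds (Nkd2, 0 in the fit of 18 libraries). For chondroblasts against muscle it was 0, and 1 with no filter, with DESeq2 or at the study's thresholds (Nkd1 each time). Over all genes, 305 of 20136 were called with no filter and 255 of 13687 with DESeq2. For chondroblasts against epithelium it was 0, and 1 with no filter (Tcf7), where 1463 of 20136 genes were called. With 18 libraries in 1 fit it was 6 (Lef1, Tcf7, Tcf7l2, Axin2, Nkd2 and Sp5), where 2961 of 15331 were called. At the study's thresholds in the main fit it was 1 (Sp5). The genes past the study's thresholds in this comparison also moved with the tool and the filter, as given above. For epithelium against muscle it was 1, and 3 with no filter (1620 of 20136 genes called), 2 with DESeq2 (1827 of 13687) and 0 with a date term (398 of 13687). It was 2 with the 9 sorted libraries in 1 fit (1534 of 14538) and 5 with 18 libraries (3576 of 15331). At the study's thresholds it was 3, all lower in epithelium, where 10.1% of all genes were lower. Library size without TMM factors shifted the median of all genes in the Notum comparison from 0.02 to 0.11 and moved no count. The fits with the 9 sorted libraries for the Notum comparison were added after seeing the data. The causes were not tested.

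None of the differences that turned direction had passed a threshold. Left out 1 library at a time, log2 fold changes crossed 0 in the Wnt5a comparison for Apcdd1 (-0.14 to 0.35), Axin2 (-0.28 to 0.16), Ctnnb1 (-0.15 to 0.092), Nkd1 (-0.56 to 0.28), Sp5 (-0.31 to 0.73) and Tcf7 (-0.51 to 0.026). They did so in the Notum comparison for Apcdd1 (-0.57 to 0.064), Nkd2 (-0.46 to 0.36) and Tcf7 (-0.35 to 0.46), and for chondroblasts against muscle for Lef1 (-0.75 to 0.092), Tcf7 (-0.30 to 0.52) and Tcf7l1 (-0.19 to 0.88). For Tcf7l1 they ran from -0.66 to 0.42 for chondroblasts against epithelium. For epithelium against muscle they crossed for Apcdd1 (-0.74 to 1.06), Ctnnb1 (-0.25 to 0.39), Sp5 (-1.56 to 1.52) and Tcf7l1 (-0.18 to 1.11). Other turns were Sp5 in Wnt5a mutants with voom (-0.062), Tcf7 in Notum mutants with DESeq2's size factors (-4.794e-04), DESeq2 (-5.168e-04), 18 libraries (-0.015) or the 9 sorted libraries (-1.519e-04), Tcf7l2 there with the date term (-0.051), Nkd2 there with voom (0.017) or the date term (0.22), and for epithelium against muscle Sp5 with voom (-0.10) and Apcdd1 with voom (0.18) or a date term (0.13).

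At E11.5 the labels' replicate numbers are not shared, and the column names of 4 controls and 4 mutants share a number. Deviations from the group means correlated at 0.09 to 0.54 between same-numbered libraries and at -0.36 to 0.13 otherwise, and 3 of 4 controls correlated best with their own number. The lowest same-number value was under 0.1, so whether the numbers pair the samples is not settled, and the values without the block are given. With this number as a replicate block, 0 of the 10 genes were called after adjustment, Nkd2 differed by -0.68 and remained the one gene past the study's thresholds, and Sp5 differed by -0.21. Sorted columns carry no replicate number, and their control libraries were blocked by date: none of the 10 genes was called after adjustment in that fit for any pair of populations. Where a population had 2 libraries, the one left when the other was omitted is assumed to vary like the rest of the fit.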
